A study of Mus musculus with 19 samples.

Results

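Cyp2a5, Cyp2g1, Cyp2f2, Cyp1a2, Cyp2a4 and Ugt2a1 are 6 enzyme genes of xenobiotic metabolism that are known from the supporting (sustentacular) cells and glands of the nasal mucosa. They were taken by name, with earlier results of these data known, from the 35596 genes quantified in whole vomeronasal organs (VNO). These are the paired organs that detect pheromones at the base of the nasal septum. Members of the cytochrome P450 superfamily oxidise lipophilic molecules, and UDP-glucuronosyltransferases such as Ugt2a1 attach a sugar acid to the product so that it can be cleared. In the nose these enzymes are known for removing odorants and for turning some inhaled compounds into toxic products. Cyp2a5 is known as the mouse coumarin hydroxylase, Cyp2a4 as a steroid hydroxylase of liver and kidney, Cyp2g1 as an enzyme of the olfactory mucosa, Cyp2f2 as the naphthalene-oxidising enzyme of airway club cells, and Cyp1a2 as a liver enzyme induced through the aryl hydrocarbon receptor.

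Libraries came from female mice at postnatal day 21, in 2 lines with 3 groups of 3 libraries each. In the AP2e line, Cre was expressed from the Tfap2e (AP-2ε) locus, which turns on in basal vomeronasal sensory neurons (VSNs) while they are still immature. In the OMP line, Cre was expressed from the Omp locus, which is active in all mature VSNs. Each line had controls labelled wild type (AP2e WT, OMP WT), which according to the study's methods carried Smad4 flox/flox without Cre. Its second controls were Cre heterozygotes for which no floxed Smad4 is named (AP2e Het with AP2eCre +/-, OMP Het with OMPCre +/-), and its conditional knockouts carried 1 Cre allele together with Smad4 flox/flox (AP2e cKO, OMP cKO). The lines thus differ in which neurons recombine and when. Smad4, which encodes the shared transducer of TGFβ and BMP signals, was to be lost only from neurons, so the 6 enzymes were measured in an organ whose supporting cells and glands were not the target. A library of the AP2e line whose title and genotype label conflict was placed in no group.

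The 18 grouped libraries held 43385516 to 134042284 counts (median 63096714). Smad4 was measured at 33.8 to 66.7 CPM (counts scaled to a common library size) in AP2e cKO and 39.5 to 80.8 CPM in the 6 AP2e controls, and at 54.6 to 62.4 CPM in OMP cKO and 64.9 to 83.8 CPM in the 6 OMP controls, where the ranges did not overlap. Neither difference passed the test across all genes (log2 fold change -0.09 ± 0.30, adjusted p = 0.955, and -0.35 ± 0.09, adjusted p = 0.909). These counts cover the whole gene and all cells of the organ, while only a floxed exon was to be lost, and only in neurons. They therefore cannot show how complete the deletion was. The study reported loss of Smad4 by immunostaining in both lines, and in the AP2e line also by in situ hybridization against the floxed exon. The labels name VSNs as the cell type, and the organ's neuron markers were abundant: the 7 VSN markers summed to 1041 to 1624 CPM. Markers of other cells were abundant too, with 6 nasal gland lipocalins at 74055 to 246089 CPM in sum. The hepatocyte markers Alb, Ttr, Apoa2 and Cyp3a11 stayed at or below 25 counts in every library, while the fifth, Serpina1a, reached 32.8 CPM in AP2e Het. Because RNA of the whole organ was pooled, fewer cells of a type and less RNA per cell cannot be told apart in any value given here. Library names fall into 2 series, one with letters (12 libraries) and one named for the line (6 libraries), spread over every group as 2 and 1, and values within each series are given where they bear on a result.

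On the GRCm38 assembly, 4 of the 6 genes lie on the plus strand of chromosome 7 within a single Cyp2 gene cluster. Cyp2a4 occupies positions 26307169 to 26315088, Cyp2g1 26808892 to 26821205, Cyp2a5 26835305 to 26843548 and Cyp2f2 27119909 to 27133660. Cyp1a2 lies on the minus strand of chromosome 9 (57676937 to 57683703), and Ugt2a1 on the minus strand of chromosome 5 (87459490 to 87490871). Among the 6, Cyp2a5 and Cyp2a4 are near-identical copies, and their start regions are shown because they differ at few bases while their counts differed by orders of magnitude. The windows hold 250 bases before and 50 after the annotated start and come from RefSeq on GRCm38.p6, at chr7:26835089-26835388 for Cyp2a5 and chr7:26306942-26307241 for Cyp2a4, both on the plus strand and printed 5′ to 3′. Capitals mark the bases that differ between the copies.
Cyp2a5: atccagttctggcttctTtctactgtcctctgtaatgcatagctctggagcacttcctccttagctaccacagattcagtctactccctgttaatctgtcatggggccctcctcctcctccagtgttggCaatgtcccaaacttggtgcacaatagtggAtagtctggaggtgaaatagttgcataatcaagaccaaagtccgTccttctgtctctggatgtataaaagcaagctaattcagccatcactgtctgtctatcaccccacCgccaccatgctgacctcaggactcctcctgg
Cyp2a4: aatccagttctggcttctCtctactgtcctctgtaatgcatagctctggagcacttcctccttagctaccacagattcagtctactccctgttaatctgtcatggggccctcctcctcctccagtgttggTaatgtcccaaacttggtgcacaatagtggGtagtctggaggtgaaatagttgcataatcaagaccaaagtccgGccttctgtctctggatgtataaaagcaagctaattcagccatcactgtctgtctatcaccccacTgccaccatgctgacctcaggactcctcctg
Over the 299 bases that align without a gap, 5 differed (98.3% identity). With the Cyp2a5 base first and positions counted from 1 at the 5′ end of the Cyp2a5 window, the substitutions were T18C, C130T, A160G, T204G and C269T. C130T falls in the letters TTGGCA, a nuclear factor I half-site, which the Cyp2a5 window holds and the Cyp2a4 window does not.

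Windows were found for 5 of the 6 genes, and 4 motifs, chosen after the sequences were read, were searched on both strands. TTGGCA stood in 2 of the 5 windows (Cyp2a5 and Ugt2a1) and in 14.1% of all 32851 windows. The TATA box letters TATAAA stood in 4 of the 5 (all but Cyp2f2) and in 13.6% of all. Of these 4, the Cyp2a5 and Cyp2a4 windows are near-identical copies and not separate finds. The letters began at base 222 or 223 of the window in Cyp2a5, Cyp1a2 and Cyp2a4, but at base 83 in Ugt2a1, far before the start. The aryl hydrocarbon response core GCGTG was in none of the 5 and in 32.4% of all windows. The early B-cell factor (EBF) palindrome, known from olfactory genes, was in none of the 5 and in 0.9% of all windows. The Ugt2a1 window (chr5:87490822-87491121, minus strand) is shown with TTGGCA and TATAAA in capitals, and the Cyp1a2 window (chr9:57683606-57683905, minus strand) with TATAAA in capitals. A match is a run of letters and was not tested as a binding site.
Ugt2a1: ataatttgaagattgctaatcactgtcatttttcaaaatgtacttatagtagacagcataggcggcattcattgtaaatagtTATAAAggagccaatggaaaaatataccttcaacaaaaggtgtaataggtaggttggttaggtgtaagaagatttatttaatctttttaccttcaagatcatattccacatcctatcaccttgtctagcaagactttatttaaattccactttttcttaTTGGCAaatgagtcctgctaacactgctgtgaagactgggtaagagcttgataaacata
Cyp1a2: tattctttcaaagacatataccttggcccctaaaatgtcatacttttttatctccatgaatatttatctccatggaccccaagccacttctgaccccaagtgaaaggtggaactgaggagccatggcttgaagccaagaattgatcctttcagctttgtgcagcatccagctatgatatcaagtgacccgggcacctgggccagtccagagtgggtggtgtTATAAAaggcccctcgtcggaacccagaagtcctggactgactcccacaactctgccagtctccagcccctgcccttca

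The coding sequences of Cyp2a5 and Cyp2a4 have 1482 bases each and differed at 23 of them (98.4% identity). Reads were 75 bases long, and 23.2% of the 75-base windows of the coding sequence held no difference at all. The window with the most differences, 5, spans coding bases 595 to 669 across the join of exons 4 and 5. It is printed because reads there tell the copies apart, with the differing bases in capitals, at chr7:26837192-26838882 for Cyp2a5 and chr7:26309029-26310720 for Cyp2a4 (both with the intron left out).
Cyp2a5: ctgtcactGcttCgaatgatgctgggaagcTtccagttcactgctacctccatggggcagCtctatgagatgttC
Cyp2a4: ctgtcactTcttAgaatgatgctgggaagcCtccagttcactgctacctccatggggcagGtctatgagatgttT
Over all annotated transcripts, 349 of the 1664 distinct 75-base windows of Cyp2a4 also occur in Cyp2a5, so counts of Cyp2a4 depend on how the quantifier divided such reads. Ugt2a1 shares far more with its neighbour Ugt2a2, which joins a first part of its own to the same 3′ exons: 1700 of its 2496 windows occur in Ugt2a2. Both transcripts are shown over the join on the minus strand of chromosome 5, with the shared exon in capitals (Ugt2a1 chr5:87465527-87486073, Ugt2a2 chr5:87465527-87474434, introns left out).
Ugt2a1: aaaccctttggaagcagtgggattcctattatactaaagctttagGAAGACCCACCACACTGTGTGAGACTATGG
Ugt2a2: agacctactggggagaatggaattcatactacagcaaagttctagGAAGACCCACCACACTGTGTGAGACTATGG
The Ugt2a1 values below therefore rest on the 5′ part of the transcript and on the quantifier's division of the rest, and are uncertain to that extent.

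**Figure D1:**
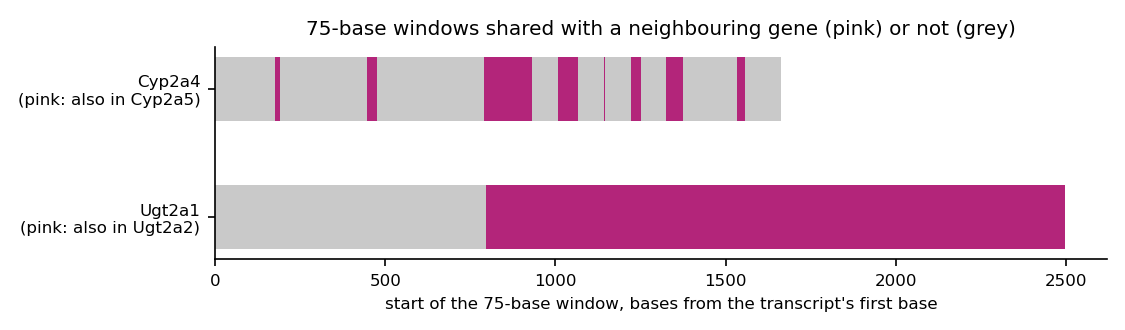
Each bar is a transcript (Cyp2a4 above, Ugt2a1 below), plotted by the start of each 75-base window in bases from the transcript's first base. Pink marks windows that also occur in the neighbouring gene: in Cyp2a4 they are scattered in short runs, and in Ugt2a1 every window from start 797 onwards is shared with Ugt2a2.

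Per length, the 6 genes spanned 4 orders of magnitude in the organ. Taking the longest coding transcript of each gene, mean levels over the 18 libraries were 568 ± 195 TPM (a length-corrected level, ± SD) for Cyp2f2, 184 ± 105 TPM for Cyp2a5, 84.5 ± 19.1 TPM for Ugt2a1, 34.8 ± 11.5 TPM for Cyp2g1, 3.09 ± 1.40 TPM for Cyp1a2 and 0.0821 ± 0.0732 TPM for Cyp2a4. Each gene stood above the next in this order in 18 of 18 libraries. The median ratio between neighbours was 3.19 for Cyp2f2 over Cyp2a5 and 37.3 for Cyp1a2 over Cyp2a4. The top of the order depended on the transcripts counted. When the deposited TPM of all transcripts were summed per gene, Cyp2a5 (844 TPM) stood above Cyp2f2 (694 TPM) on average and in 12 of 18 libraries, and a 442-base transcript of Cyp2a5 alone held a median of 419.9 TPM. By summed TPM, Cyp2a5 ranked 89th, Cyp2f2 119th, Ugt2a1 1203rd, Cyp2g1 2985th, Cyp1a2 12441st and Cyp2a4 20140th of 35596 genes. Of the neighbouring genes of the cluster, Cyp2a22 had 0 counts in every library, and Cyp2a12 had 0.0185 to 0.860 CPM.

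Cyp2a5 was the member with the widest relative range in CPM among those above 1 CPM, from 211 to 1972 over the 18 libraries. Here and below CPM are scaled by the trimmed mean of M-values (TMM). In replicate order it measured 407, 727 and 660 CPM in AP2e WT. The AP2e Het libraries held 1972, 722 and 974 CPM, and the AP2e cKO libraries 336, 451 and 271 CPM. AP2e cKO was thus low, but its highest library lay above the lowest AP2e WT library, and a single Het library lay far above all others. In the OMP line the values were 809, 657 and 211 CPM in WT, 517, 521 and 395 CPM in Het, and 714, 436 and 315 CPM in cKO. These 3 groups overlapped throughout.

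Cyp2f2 followed the same outline at a higher level. AP2e WT libraries held 1207, 1399 and 1437 CPM, AP2e Het libraries 2439, 1241 and 1603 CPM, and AP2e cKO libraries 612, 1208 and 635 CPM. Of the AP2e cKO libraries 2 lay below every control of the line, and replicate 2 lay just above the lowest control. In the OMP line Cyp2f2 measured 1716, 1613 and 509 CPM in WT, 1115, 1192 and 606 CPM in Het, and 1498, 899 and 604 CPM in cKO. The lowest value of each OMP group was the library named for the line.

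Cyp2g1 was steadier in the AP2e line. It measured 55.7, 76.1 and 63.4 CPM in AP2e WT, 106, 78.3 and 65.8 CPM in AP2e Het and 53.6, 78.7 and 81.7 CPM in AP2e cKO. In the OMP line it measured 64.4, 46.3 and 26.03 CPM in WT, 101, 83.5 and 95.1 CPM in Het and 47.5, 64.3 and 45.4 CPM in cKO. The OMP Het libraries were high, and those of WT and cKO overlapped.

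Cyp1a2 was scarce but above its counting floor, with 91 to 1336 counts per library. AP2e WT libraries held 7.57, 5.65 and 5.33 CPM, AP2e Het libraries 12.4, 9.37 and 4.15 CPM and AP2e cKO libraries 5.41, 9.56 and 9.65 CPM. OMP WT libraries held 7.75, 2.82 and 1.69 CPM, OMP Het libraries 9.41, 5.87 and 6.35 CPM and OMP cKO libraries 2.61, 4.49 and 3.49 CPM. In both lines the values of WT and Het overlapped, as did those of cKO and its 6 controls. Ugt2a1 varied least of the 6 genes, from 106 to 305 CPM. It measured 213, 305 and 239 CPM in AP2e WT, 296, 272 and 191 CPM in AP2e Het and 198, 250 and 204 CPM in AP2e cKO. The OMP WT libraries held 270, 244 and 106 CPM, OMP Het 258, 304 and 281 CPM, and OMP cKO 248, 214 and 149 CPM.

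Cyp2a4 was detected at very low counts. The libraries of AP2e WT held 3, 0 and 12 counts, of AP2e Het 31, 8 and 16 counts, and of AP2e cKO 9, 60 and 4 counts. In the OMP line there were 19, 7 and 1 counts in WT, 7, 3 and 1 counts in Het and 7, 4 and 4 counts in cKO. The library with 0 counts allows up to 3 counts, or 0.0665 CPM, which covers counting error only. No level of Cyp2a4 exceeded 0.476 CPM, against at least 211 CPM of its near-identical copy Cyp2a5 in the same organs.

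**Figure D2:**
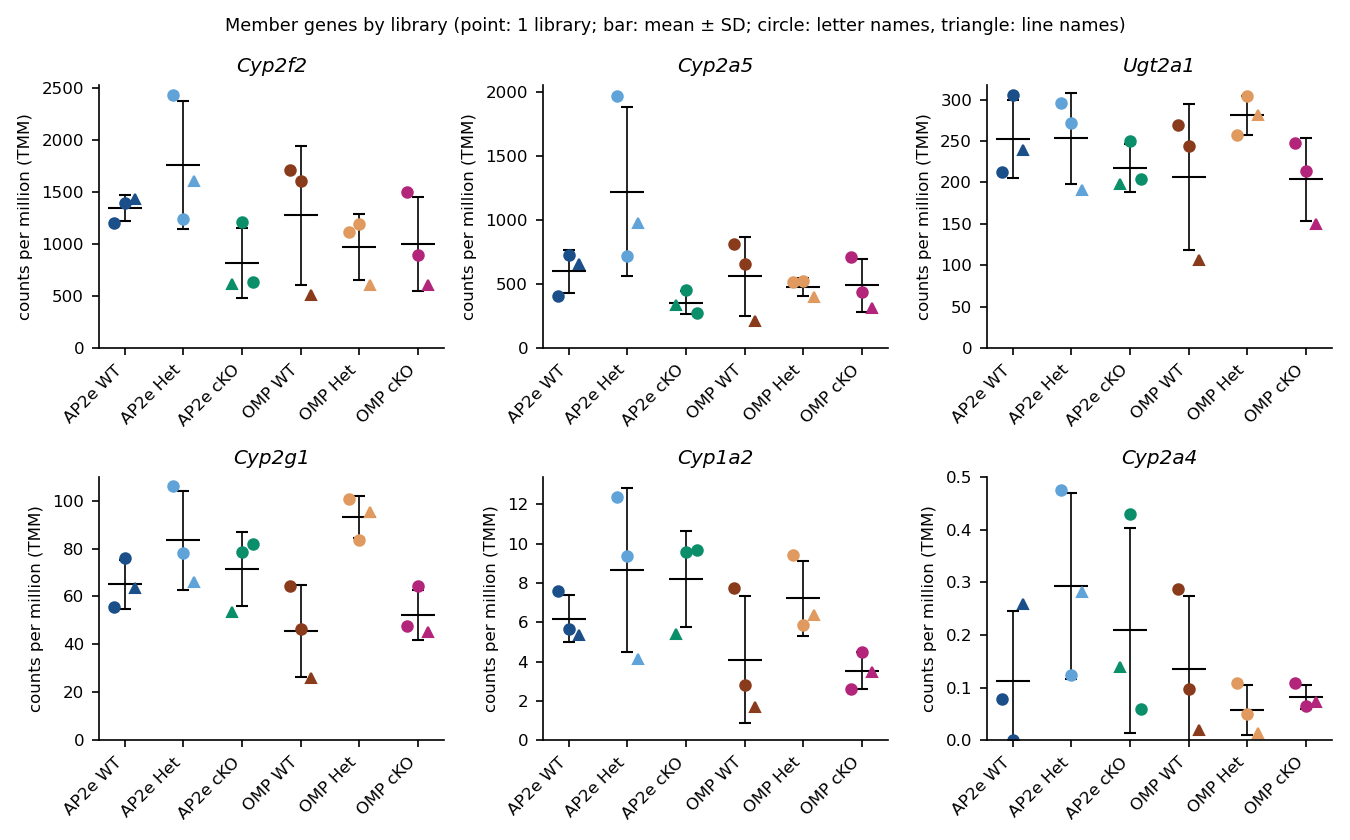
Each panel shows 1 gene in TMM-scaled CPM (linear axis from 0) for the 6 groups, with 1 point per library, circles for the letter-named and triangles for the line-named libraries, and bars for the mean ± SD of 3 libraries. Cyp2f2 and Cyp2a5 are low in AP2e cKO and highest in 1 AP2e Het library (2439 and 1972 CPM), and Cyp2g1 is high in the 3 OMP Het libraries; SD bars of Cyp2a4 that reach below 0 are cut at the axis.

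The first comparison asked how the enzymes differed when Smad4 was deleted from maturing basal neurons, and set the 3 AP2e cKO libraries against the 6 controls of the line. Cyp2a5 averaged 353 ± 91.1 CPM (SD, n = 3) against 910 ± 551 CPM (n = 6), and Cyp2f2 818 ± 338 CPM against 1554 ± 457 CPM. The log2 fold changes were -1.37 ± 0.44 (SE) for Cyp2a5 (adjusted p = 0.346) and -0.93 ± 0.28 for Cyp2f2 (adjusted p = 0.330, both by edgeR's quasi-likelihood test, with the Benjamini-Hochberg method applied across 18495 genes). Neither passed the threshold of 0.05. In the exact two-sided permutation test over samples, for which 0.012 is the smallest possible p, Cyp2a5 gave p = 0.0595 and Cyp2f2 p = 0.0238, unadjusted over the 30 such tests of members. The other members had log2 fold changes of -0.22 ± 0.16 (Ugt2a1), -0.06 ± 0.20 (Cyp2g1), 0.15 ± 0.33 (Cyp1a2) and 0.05 ± 0.97 (Cyp2a4).

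In all, 0 of 6 members were called in this comparison, beside 7 of all 18495 genes tested (0.0378%), and 2 of 6 had an unadjusted p under 0.05, beside 10.2% of all genes. No member had groups without overlap, beside 5.06% of all genes. DESeq2 called 0 of 6 members too, beside 1.59% of the genes it tested, with adjusted p = 0.216 for Cyp2a5 and 0.156 for Cyp2f2. The size of the Cyp2a5 difference depended on the controls: it was -0.77 against AP2e WT alone and -1.79 against AP2e Het alone, and -0.98 without the AP2e Het library of 1972 CPM. Within the letter series the means of log2(CPM + 1) differed by -1.20 for Cyp2a5 (2 libraries against 4) and within the line series by -1.25 (1 against 2). The corresponding differences of Cyp2f2 were -0.78 and -1.31.

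Gland and airway markers moved with these 2 genes in the same libraries. All 6 nasal gland lipocalins (Obp1a, Obp2a, Obp2b, Lcn3, Lcn4 and Mup4) had an unadjusted p under 0.05 and a lower level in AP2e cKO, with a median log2 fold change of -1.07. Their summed level was 74055 to 113647 CPM in AP2e cKO, 121234 to 246089 CPM in AP2e WT and 147449 to 191991 CPM in AP2e Het, so that all cKO libraries lay below all controls. Of the 3 respiratory secretory markers tested 2 had a lower level at that threshold, and 1 without AP2e Het replicate 1 (summed level 1645 to 3882 CPM in cKO, 3606 to 6210 CPM in WT and 3987 to 6493 CPM in Het), and the fourth, Scgb1a1, never exceeded 0.208 CPM. All 5 ciliated cell markers had negative estimates, and 2 were lower at that threshold (275 to 458 CPM in cKO, 458 to 546 CPM in WT and 454 to 549 CPM in Het). edgeR called none of these genes, while DESeq2 called 5 of the 6 lipocalins, 1 of 4 secretory and 1 of 5 ciliated markers lower. The summed level of the 4 main olfactory sustentacular markers (Cbr2, Sult1c1, Muc2 and Ermn) was 758 to 1168 CPM in cKO, 1022 to 1252 CPM in WT and 1034 to 1454 CPM in Het, and 1 of the 4 had an unadjusted p under 0.05. Cbr2 made up most of that sum, with a mean of 1041 CPM over the 18 libraries beside 30.4 (Sult1c1), 6.97 (Muc2) and 4.12 CPM (Ermn). All 4 Bowman gland markers had negative estimates, and 2 of them were lower at an unadjusted p under 0.05 (1 of 4 without AP2e Het replicate 1). Of the other lists, at that threshold 1 of 7 VSN and 1 of 5 main olfactory neuron markers were higher, 0 of 3 erythroid markers were past it, and the only hepatocyte marker tested, Serpina1a, was lower. The part of these cell types in the Cyp2a5 and Cyp2f2 values was not tested.

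The second comparison set the 3 OMP cKO libraries, in which Smad4 was deleted from all mature VSNs, against the 6 OMP controls. Cyp2a5 averaged 489 ± 204 CPM (n = 3) against 518 ± 207 CPM (n = 6), a log2 fold change of -0.08 ± 0.38 (adjusted p = 1.00), and Cyp2f2 1001 ± 456 CPM against 1125 ± 498 CPM (-0.17 ± 0.42). Cyp2g1 (-0.40 ± 0.37), Cyp1a2 (-0.68 ± 0.49) and Ugt2a1 (-0.26 ± 0.29) also had negative estimates within 2 standard errors of 0. Cyp2a4 had too few counts to be fitted in this line. edgeR called 0 of the 5 members fitted and 0 of 18623 genes (0.0%), and no member had an unadjusted p under 0.05, beside 3.95% of all genes, or groups without overlap, beside 2.36%. DESeq2 called none of the members and 46 genes (0.243%). With 1 library left out, Ugt2a1 ran from -0.43 to -0.08. Of the marker lists, 3 of 7 VSN markers were higher, and 1 of 4 Bowman gland and 1 of 3 erythroid markers lower, at an unadjusted p under 0.05. The main olfactory neuron median was -0.64, with 4 of 5 estimates negative and 0 past that threshold. Their part in the members' values was not tested. The sign of Cyp2a5 and Cyp2f2 turned against OMP Het alone (0.04 and 0.05) and that of Cyp2g1 against OMP WT alone (0.20), while Cyp2g1 was at -0.83 and Cyp1a2 at -1.03 against OMP Het alone.

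The effects of the 2 deletions were then set against each other in 1 fit over all 18 libraries. The AP2e effect was lower than the OMP effect by 1.20 ± 0.55 (SE) on the log2 scale for Cyp2a5 (adjusted p = 0.986) and by 0.76 ± 0.54 for Cyp2f2 (adjusted p = 1.00). The Cyp2f2 difference was -1.15 without AP2e cKO replicate 2 and -0.35 without OMP cKO replicate 1. For Cyp2g1 the difference was 0.26 ± 0.33, for Cyp1a2 0.79 ± 0.58, for Ugt2a1 0.02 ± 0.34 and for Cyp2a4 0.32 ± 1.42. With 1 library left out, Cyp2g1 ran from 0.096 to 0.44 and Cyp1a2 from 0.36 to 1.02. None of the 6 passed the threshold, beside 1 of 19465 genes (0.00514%), and 1 of 6 had an unadjusted p under 0.05, beside 5.05% of all genes. DESeq2 called none of the members and 0.216% of the genes it tested. Of the marker lists, 3 of 6 lipocalins (median -1.26) and 1 of 5 ciliated markers were lower at an unadjusted p under 0.05, and 3 of 5 main olfactory neuron markers (median 0.73) and 1 marker each of the VSN, Bowman gland and erythroid lists were higher. Their part in the members' values was not tested. The tests across genes therefore did not separate the lines for any member.

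**Figure D3:**
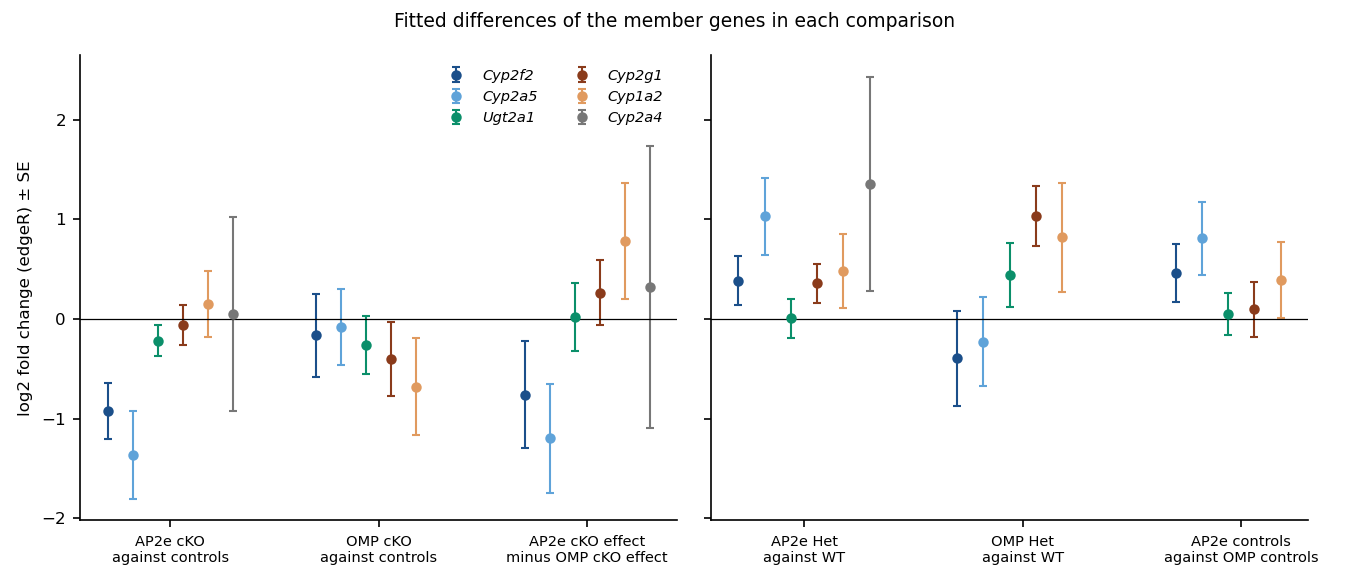
Points are log2 fold changes from edgeR and bars their standard errors, by comparison, for each member that could be fitted. Cyp2a5 (-1.37) and Cyp2f2 (-0.93) lie lowest in AP2e cKO, Cyp2g1 (1.03) is highest of the fitted members in OMP Het against WT, and no point passed the adjusted threshold in edgeR.

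The 2 kinds of control were also compared with each other. They differ in the Cre allele and, as far as named, in floxed Smad4, so the parts of these cannot be told apart. In the AP2e line Cyp2a5 averaged 1223 ± 661 CPM in Het and 598 ± 169 CPM in WT (n = 3 each), a log2 fold change of 1.03 ± 0.39 (adjusted p = 0.911). It was 0.50 without the highest Het library, and the groups overlapped. Cyp2f2 (0.39 ± 0.25, 0.08 without that library and 0.58 without Het replicate 2), Cyp2g1 (0.36 ± 0.19), Cyp1a2 (0.48 ± 0.37), Cyp2a4 (1.36 ± 1.08, and 0.78 to 2.90 with 1 library left out) and Ugt2a1 (0.01 ± 0.20) did not pass either, and no member had groups without overlap, beside 9.77% of all genes. With 1 library left out, Cyp2g1 ran from 0.15 to 0.50 and Cyp1a2 from 0.13 to 0.82. The Het library with the highest Cyp2a5 also had the lowest VSN marker score (mean log2(CPM + 1)) of all 18 libraries, 6.40 beside at least 6.82 in the others, and the highest respiratory secretory score, 8.31. In this comparison all 7 VSN markers had negative estimates, 2 of them with an unadjusted p under 0.05 (1 without that library), and the respiratory secretory median was 0.46 (0.12 without it), with 0 of 3 past that threshold. The 2 VSN markers were Gnao1 (-0.38) and Tfap2e (-1.03). The Tfap2e locus carries Cre in this line, and Tfap2e is also part of the VSN score. Of the other lists, 1 of 4 Bowman gland markers and Serpina1a were higher. The part of these cell types in the Cyp2a5 value was not tested. edgeR called 0 of 6 members beside 4 of 17827 genes (0.0224%), 1 of 6 had an unadjusted p under 0.05 beside 5.18% of all genes, and DESeq2 called no member and 0.874% of its genes.

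In the OMP line Cyp2g1 averaged 93.1 ± 8.71 CPM in Het and 45.6 ± 19.2 CPM in WT (n = 3 each), and all 3 Het libraries lay above all 3 WT libraries. The log2 fold change was 1.03 ± 0.30 (adjusted p = 0.763 by edgeR). The exact permutation test gave p = 0.1, the smallest that 3 against 3 libraries allow. Groups of 3 without overlap occurred for 11.6% of the 18124 genes tested. DESeq2 called Cyp2g1 (log2 fold change 1.03, adjusted p = 0.0249) as 1 of 148 genes (0.744% of those tested), while edgeR called 0 of the 5 fitted members and 8 genes (0.0441%). Without the lowest WT library (26.03 CPM) the log2 fold change was 0.75. Within the letter series the difference in mean log2(CPM + 1) was 0.74 (2 against 2 libraries), and within the line series 1.83 (1 against 1).

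Main olfactory neuron markers moved with Cyp2g1 in these libraries. All 5 (Rtp1, Stoml3, Gnal, Cnga4 and Cnga2) had positive log2 fold changes with a median of 0.92, and 4 had an unadjusted p under 0.05. Their summed level was 418 to 436 CPM in OMP Het and 277 to 319 CPM in OMP WT, without overlap. edgeR called none of the 5 and DESeq2 called 2, Gnal (1.28) and Cnga2 (1.23), which are named here after their values were seen. At the same threshold 1 of 4 main olfactory sustentacular markers was higher (list median 0.20), 1 of 7 VSN markers was lower (Omp, whose locus carries Cre in this line, -0.74), and 0 markers of the other 6 lists were past it. Without OMP WT replicate 3, 2 markers each of the Bowman gland, ciliated, lipocalin and respiratory secretory lists were lower, the sustentacular list had 1 higher and 2 lower, and all 5 main olfactory neuron markers were higher (median 0.63). The part of these cell types in the Cyp2g1 value was not tested. Cyp1a2 (0.82 ± 0.55, and 0.45 to 1.68 with 1 library left out), Ugt2a1 (0.44 ± 0.32, and 0.13 to 0.68), Cyp2a5 (-0.23 ± 0.44) and Cyp2f2 (-0.40 ± 0.47) did not pass, and 1 of the 5 fitted members had an unadjusted p under 0.05, beside 5.54% of all genes.

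The controls of the AP2e line were also set against those of the OMP line, 6 libraries each. Cyp2a5 averaged 910 ± 551 CPM in AP2e controls and 518 ± 207 CPM in OMP controls, with a log2 fold change of 0.81 ± 0.37 (adjusted p = 0.759) that fell to 0.43 without the highest AP2e Het library. Cyp2f2 (0.46 ± 0.29), Cyp1a2 (0.39 ± 0.38, and 0.18 to 0.60 with 1 library left out), Cyp2g1 (0.10 ± 0.28) and Ugt2a1 (0.05 ± 0.21) had smaller estimates, and no member had groups without overlap, beside 0.491% of all genes. Of the marker lists, all 5 ciliated markers had positive estimates (median 0.36), 1 of them with an unadjusted p under 0.05. At that threshold 2 of 3 erythroid markers were lower and Serpina1a was higher. Their part in the members' values was not tested. Within the letter series the Cyp2f2 controls differed by 0.12 on the log2(CPM + 1) scale (4 against 4 libraries) and within the line series by 1.45 (2 against 2), and Cyp2a5 by 0.39 and 1.47. edgeR called 0 of the 5 fitted members and 17 of 17912 genes (0.0949%), 1 of 5 had an unadjusted p under 0.05 beside 6.57% of all genes, and DESeq2 called no member and 0.643% of its genes.

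Across the 18 libraries the members were related to different degrees. Pearson correlations were computed on log2(CPM + 1) for all 15 pairs, with permutation p-values adjusted over the 15. Cyp2a5 and Cyp2f2 varied together, with r = 0.92 and Spearman's rho = 0.91 (permutation p = 1e-05 for each, the smallest that 100000 resamples give, adjusted p = 7.5e-05 and 0.00015). Leaving out the 2 libraries farthest from the median of Cyp2a5 gave r = 0.89, and within the letter and line series r was 0.92 (n = 12) and 0.95 (n = 6). Cyp2g1 and Cyp1a2 formed a second pair, with r = 0.85 and rho = 0.82 (adjusted permutation p = 7.5e-05 and 0.00142), 0.74 without the 2 farthest libraries, and 0.82 and 0.92 within the series. These 2 genes lie on different chromosomes.

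Between the pairs the pooled correlations were lower and changed with the libraries and the scale used. Cyp2a5 and Cyp2g1, which are neighbours on chromosome 7, gave r = 0.46 and rho = 0.31 (adjusted permutation p = 0.0913 and 0.319), and r = -0.04 without the 2 farthest libraries. Cyp2f2 and Cyp1a2 gave r = 0.29 and rho = 0.15 (adjusted permutation p = 0.251 and 0.638), and r = -0.14 without them. Taken as deviations from the 6 group means, however, r was 0.69 for Cyp2a5 and Cyp2g1, 0.62 for Cyp2g1 and Cyp2f2 and 0.42 for Cyp2f2 and Cyp1a2, beside 0.92 and 0.82 within the pairs. In the line series Cyp2a5 and Cyp2g1 gave r = 0.63 (n = 6) and in the letter series 0.20 (n = 12). Ugt2a1 stood between, with r = 0.79 to Cyp2g1, 0.64 to Cyp2a5 and 0.63 to Cyp2f2 (rho = 0.68, 0.56 and 0.42, with adjusted permutation p = 0.00205, 0.0138 and 0.0135 for r and 0.0135, 0.0493 and 0.154 for rho). Without the 2 farthest libraries these 3 correlations were 0.56, 0.45 and 0.45, and within the letter series the first fell to 0.41. Cyp2a4, at 0 to 60 counts, gave r = 0.62 to Cyp2a5 and 0.61 to Cyp2f2 (adjusted permutation p = 0.0138 for both), and 0.35 and 0.42 without the 2 farthest libraries. Its r to Cyp2g1, Cyp1a2 and Ugt2a1 was 0.30, 0.44 and 0.24. The part of reads divided between Cyp2a4 and its copy Cyp2a5 in these values was not tested. The farthest libraries were AP2e Het replicate 1, highest of all 18 for every member except Ugt2a1, and OMP WT replicate 3, lowest of all 18 for every member except Cyp2a4. All points share the pooled tissue and the scaling of their library.

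**Figure D4:**
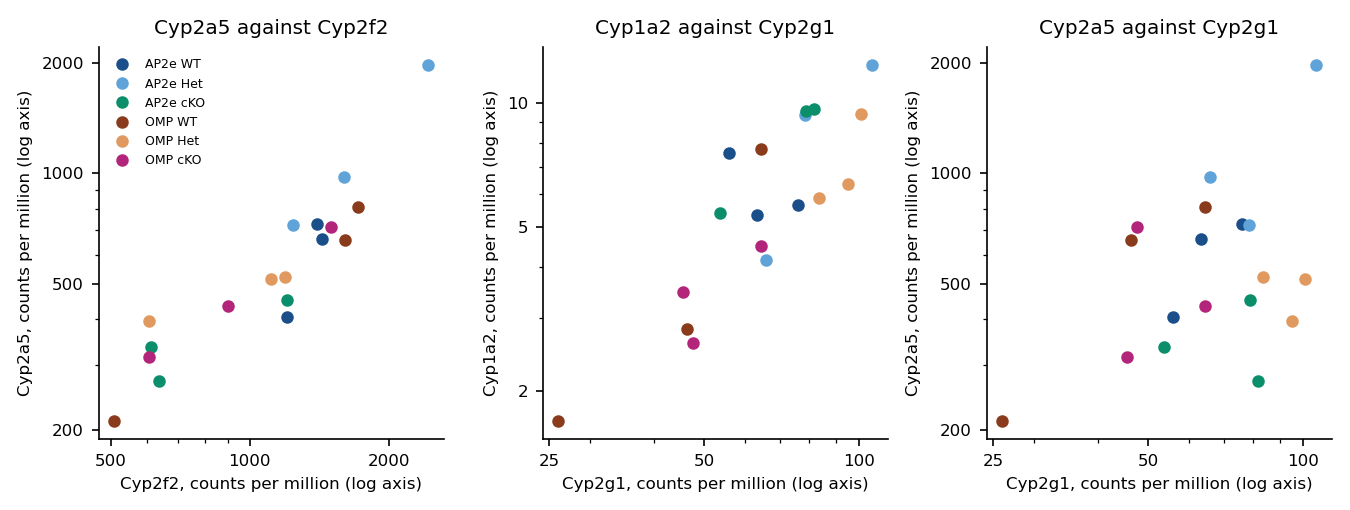
Each point is 1 of 18 libraries, coloured by group, with TMM-scaled CPM on log axes. Cyp2a5 rises with Cyp2f2 (r = 0.92) and Cyp1a2 with Cyp2g1 (r = 0.85), while Cyp2a5 against Cyp2g1 (r = 0.46) is spread out apart from the highest and the lowest library.

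The pairs were then set beside the marker lists. For each list a score was formed as the mean log2(CPM + 1) of its markers, and correlations were adjusted over the 54 relations of 6 members with 9 lists. Cyp2f2 and Cyp2a5 followed the respiratory secretory markers (r = 0.95 and 0.87, rho = 0.95 and 0.91, adjusted permutation p = 0.000135 for both r and 0.00018 for both rho) and the ciliated cell markers (r = 0.94 and 0.78, rho = 0.95 and 0.83, adjusted permutation p = 0.000135 and 0.00027 for r and 0.00018 and 0.000945 for rho). Without the 2 farthest libraries the former were 0.94 and 0.85 and the latter 0.94 and 0.74, and within the letter series 0.96 and 0.91, and 0.93 and 0.76. They were related to the main olfactory sustentacular markers too (r = 0.86 and 0.82, rho = 0.79 and 0.73, adjusted permutation p = 0.000135 and 0.000608 for r), with 0.78 and 0.67 without the 2 farthest libraries. To the lipocalins r was 0.78 and 0.74, rho 0.65 and 0.76 (adjusted permutation p = 0.00132 and 0.00152 for r), and 0.75 for both without the 2 farthest libraries. Cyp2a5 was inversely related to the VSN markers (r = -0.69, rho = -0.40, adjusted permutation p = 0.0141 and 0.243), with -0.29 without the 2 farthest libraries and -0.83 in the letter series. To the main olfactory neuron markers their r was 0.08 and 0.14 and their rho -0.02 and 0.08 (adjusted permutation p = 0.799 and 0.642 for r). Cyp2g1 and Cyp1a2 followed the main olfactory neuron markers (r = 0.83 and 0.81, rho = 0.80 and 0.78, adjusted permutation p = 0.000216 and 0.000386 for r and 0.00162 and 0.00201 for rho), with 0.80 and 0.79 without the 2 farthest libraries and 0.78 and 0.79 within the letter series. Their r to the respiratory secretory markers was 0.48 and 0.35 (rho = 0.20 and 0.11, adjusted permutation p = 0.0919 and 0.226 for r), and without the 2 farthest libraries 0.07 and -0.06. The order of the lists changed when deviations from the group means were used: Cyp2g1 then had r = 0.62 with the main olfactory neuron markers, 0.74 with the respiratory secretory and 0.78 with the main olfactory sustentacular markers. Cyp1a2 had 0.67 with the main olfactory neuron and 0.71 with the Bowman gland markers. Ugt2a1 was related to the main olfactory sustentacular markers (r = 0.77, rho = 0.59, adjusted permutation p = 0.00135 and 0.0548, and 0.52 without the 2 farthest libraries). It was also related to the respiratory secretory (r = 0.75, rho = 0.56, adjusted permutation p = 0.00171 and 0.0687), ciliated (r = 0.68, rho = 0.50, adjusted permutation p = 0.00959 and 0.116) and lipocalin markers (r = 0.59, rho = 0.68, adjusted permutation p = 0.0262 and 0.0138), with 0.49, 0.33 and 0.61 without the 2 farthest libraries. By deviations from group means its r was 0.87 with respiratory secretory, 0.81 with ciliated and 0.80 with sustentacular markers. The cells of origin cannot be read from pooled RNA, and whether the differences between these correlations exceed chance was not tested.

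**Figure D5:**
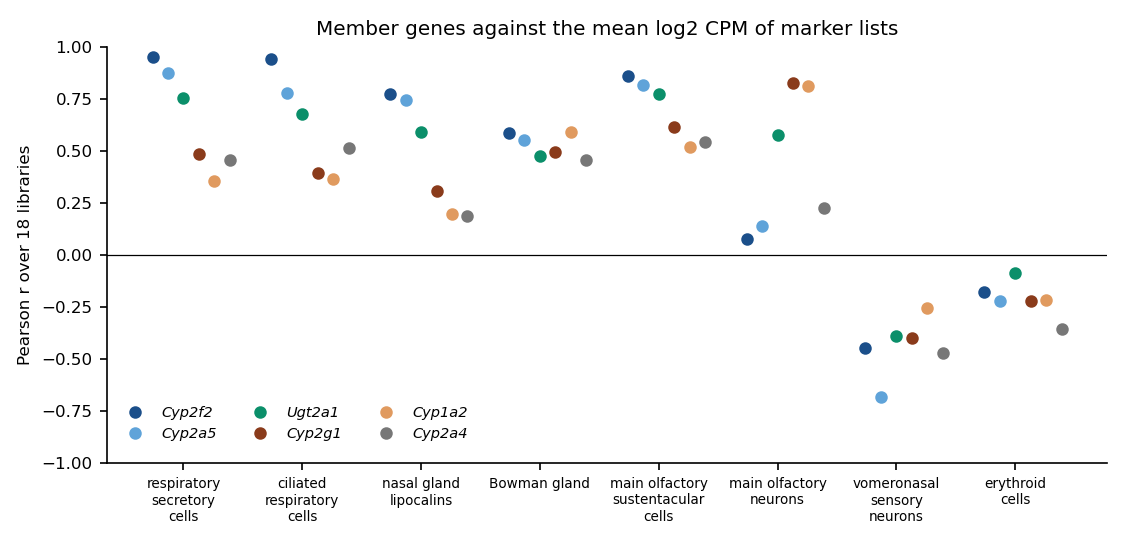
Points are Pearson correlations over 18 libraries between a member and the mean log2(CPM + 1) of a marker list, with hepatocyte markers left out. Cyp2f2 and Cyp2a5 are highest for respiratory secretory cells (0.95 and 0.87), and Cyp2g1 and Cyp1a2 for main olfactory neurons (0.83 and 0.81), where Cyp2f2 and Cyp2a5 lie near 0. These are pooled values, and for Cyp2g1 and Cyp1a2 the order of the lists changes when group means are removed.

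The genes whose levels were most like the mean standardised level of the 6 members, among 15833 other genes with a mean of at least 1 CPM, were Sec14l3 (r = 0.91, rho = 0.85), Vwa3a (r = 0.90), Otx2 (0.89), Stpg1 (0.89), Cyp2b10 (0.88), Dlec1, Kcnk12, Fam149a, Dmrt2 and Gm12695 (0.87 to 0.88), each over 18 libraries. Otx2 encodes a homeobox factor of the anterior head, and Cyp2b10 is a further drug-metabolising member of its family. The ranking was repeated for each pair, a choice made after the values were seen. Most like Cyp2a5 and Cyp2f2 were Mettl7a1 (r = 0.98), Aldh1a1 (0.96), which makes retinoic acid from retinal, Pgrmc1 (0.96), a haem-binding partner of such oxidases, Acsm1 (0.96) and the glutathione transferase Gsta3 (0.96). Most like Cyp2g1 and Cyp1a2 were Stoml3 (r = 0.905), S100a5 (0.88), Cnga2 (0.87), Gnal (0.86) and the odorant receptor gene Olfr740 (0.86). Cnga2 and Gnal encode the channel subunit and the G protein of odour transduction in the main olfactory epithelium. The correlations are descriptions of the highest of many and carry no test.

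The wider pathway was followed in a list of 98 genes in 4 classes, of which 97 were found. Like the members, the list was chosen with earlier results of these data known. In AP2e cKO against controls 88 were tested, 67 had a lower level, and 25 had an unadjusted p under 0.05 with a lower level and 1 with a higher level, together 29.5% beside 10.2% of all genes. edgeR called 0 of them and DESeq2 called 11 of 95, all lower. Without the highest AP2e Het library the counts at an unadjusted p under 0.05 were 22 lower and 2 higher. Of 36 phase I enzymes (oxidation and hydrolysis) 15 were lower and 1 higher at that threshold (median log2 fold change -0.33, beside 0.00 for all genes), and of 34 phase II enzymes (conjugation) 7 were lower (median -0.22). None of 9 export pumps and 3 of 9 regulators were past it, and 1 of 9 regulators without AP2e Het replicate 1.

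Among the 3 most abundant genes of each class, Cyb5a, an electron carrier for these oxidases, was at -0.26 ± 0.07 on the log2 scale (adjusted p = 0.317), Cbr2 -0.28 ± 0.15 and Aldh2 -0.09 ± 0.10. Of the conjugating enzymes Gstm1 had -0.23 ± 0.20, Ugt2a2 -0.04 ± 0.20 and Gsto1 -0.94 ± 0.42 (adjusted p = 0.479). Of the pumps and regulators, Abcc1, Abcg2, Abcc4, Nfe2l2 and Keap1 lay between -0.05 and 0.11, and Nfib, a member of the nuclear factor I family, had -0.23 ± 0.09 (adjusted p = 0.424). Aldh1a1 and Gsta3, named above for their likeness to Cyp2a5 and Cyp2f2, had -1.30 ± 0.31 (adjusted p = 0.269) and -0.76 ± 0.20 (adjusted p = 0.292), and DESeq2 called both. In OMP cKO against controls 89 pathway genes were tested, 0 were called by either tool, and 3 were higher and 0 lower at an unadjusted p under 0.05 (3.37% beside 3.95% of all genes). The difference between the 2 effects had 10 of 90 pathway genes lower at that threshold and 0 higher (11.1% beside 5.05%), none called by either tool.

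The pathway list was also followed in the comparisons of controls. AP2e Het against WT had 8 of 87 genes higher and 4 lower at an unadjusted p under 0.05 (13.8% beside 5.18%), with 0 called by edgeR and 3 by DESeq2, and 3 higher and 2 lower of 88 without AP2e Het replicate 1. OMP Het against WT had 1 higher and 5 lower of 87 (6.90% beside 5.54%), with 63 of the 87 estimates negative, 0 genes called by edgeR, and 1 called higher and 2 lower by DESeq2. Without OMP WT replicate 3 the count was 3 higher and 21 lower of 89. AP2e controls against OMP controls had 9 higher and 1 lower of 88 (11.4% beside 6.57%), with 24 of the 88 estimates negative, 0 genes called by edgeR and 1 called higher by DESeq2. Of all list genes, pathway and markers together, edgeR called 1 in any comparison: Alas2, the erythroid enzyme for the first step of haem synthesis, was lower in AP2e than in OMP controls (log2 fold change -0.90 ± 0.12, adjusted p = 0.0106).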

How the data were processed

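RNA of whole VNO was sequenced as polyA-selected, strand-marked libraries with single 75-base reads. The authors quantified transcripts with Salmon 0.14.0 and deposited estimated counts (not whole numbers) and TPM per transcript for each library. The study's own tests used DESeq2 1.22.2. Here the 116072 transcripts with a gene (of 116248; those without held at most 0.032% of counts) were summed to 35596 genes with the GENCODE vM21 annotation of GRCm38, and the expected counts were rounded.

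Genes were filtered with filterByExpr, scaled by TMM and tested with edgeR 4.0.16 (quasi-likelihood, R 4.3.3) with Benjamini-Hochberg adjustment over all genes tested and a threshold of 0.05. Each cKO group was set against the 6 controls of its line. The code was tested on simulated data. Permutation tests and correlations used log2(CPM + 1), a pseudocount of 1 (scipy 1.17.1). DESeq2 1.42.0, other scalings and filters, a term for the library series, a replicate block, either control alone and each library left out were alternatives.

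The 6 genes, the gene lists and the comparisons were chosen with earlier results of these data known. Named were the members, the 3 list genes with the highest mean TPM in each pathway class, any list gene past the adjusted threshold, and the 10 genes most like the members. The titles call replicates biological, and p-values measure only the spread between these libraries. Intervals and floors cover counting error only. 1 library with conflicting labels was kept out of all comparisons.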

Additional observations from a re-analysis of the deposited data

Results flagged for a closer look

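Each of the 6 members was looked at in the 6 control libraries of each line, which gave 12 sets of values. In 4 of the 12, the highest or lowest library stood apart from the others by more than Dixon's criterion for 6 samples. The criterion's rate of about 1 in 20 is for independent, normally spread values of 1 kind. These sets share libraries, mix WT and Het and hold genes that vary together, so 4 of 12 cannot be read against that rate. Cyp2a5 reached 1972 CPM in AP2e Het replicate 1, a gap of 0.638 of the range of the AP2e controls. Cyp2f2 reached 2439 CPM in the same library (0.678). Ugt2a1 was at 106 CPM in OMP WT replicate 3, below the other OMP controls (0.695). Cyp2a4 was at 0.288 CPM in OMP WT replicate 1, or 19 counts (0.654). The cause was not tested.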

How the results depend on the processing

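Over the alternatives, 288 of 299 log2 fold changes of members kept their direction and their side of the threshold, and 305 of 333 did so when 1 library was left out. Cyp2g1 in OMP Het against WT passed only with DESeq2, which called 1 member there. Signs turned as follows. In AP2e cKO, Cyp2g1 was 0.12 against WT alone, Cyp1a2 -0.070 and Cyp2a4 -0.45 against Het alone, and Cyp2a4 -0.089 with the conflicting library added to Het. In OMP cKO, Cyp2a5 was 0.040 and Cyp2f2 0.051 against Het alone, and Cyp2g1 0.20 against WT alone. In AP2e Het against WT, Ugt2a1 was -0.017 with the series term, -0.015 with the conflicting library and -0.0041 with the replicate block. With 1 library left out, values ran from -0.16 to 0.11 (Cyp2g1) and -1.04 to 0.51 (Cyp2a4) in AP2e cKO, from -0.47 to 0.15 (Cyp2a5) and -0.59 to 0.092 (Cyp2f2) in OMP cKO, from -0.12 to 0.17 (Ugt2a1) in AP2e Het against WT, from -0.62 to 0.14 (Cyp2a5) in OMP Het against WT, from -0.77 to 1.09 (Cyp2a4) and -0.16 to 0.19 (Ugt2a1) in the difference between lines, and from -0.071 to 0.23 (Cyp2g1) and -0.10 to 0.12 (Ugt2a1) between controls. For Cyp2f2 in OMP Het against WT values ran from -0.78 to -0.13, and between controls from 0.29 to 0.63. Genes called among all tested depended strongly on the setting. In AP2e cKO (7) there were 320 with DESeq2, 24 against WT alone, 4 with length-scaled counts, 2 with the series term, with the block and at an adjusted threshold of 0.01, 0 with the conflicting library, and 2 to 8 with 1 library left out. In OMP cKO (0) there were 46 with DESeq2, 1 with the series term, 11 against Het alone, and 0 to 2. In AP2e Het against WT (4) there were 179 with DESeq2, 8 with no filter, 2 with the series term, 0 at 0.01, 1 with the conflicting library, and 3 to 28. In OMP Het against WT (8) there were 148 with DESeq2, 3 with length-scaled counts, 2 with the block and at 0.01, and 0 to 15. For the difference (1) there were 49 with DESeq2, 2 with no filter and with the series term, 0 with the block and at 0.01, and 0 to 5. Between controls (17) there were 131 with DESeq2 and 6 at 0.01. Summed TPM put Cyp2a5 above Cyp2f2 in 12 libraries, against 0 by the longest coding transcript, an alternative chosen after seeing the data. The cause was not tested. By the criterion used (a correlation over 0.1 in every same-numbered pair) replicate numbers were not taken as pairing the libraries. Deviations of same-numbered libraries correlated at -0.089 on average in the AP2e line (-0.338 to 0.206) and 0.046 for other numbers. All same-numbered pairs of the OMP line were positive (0.26 on average, 0.035 to 0.565), beside -0.126 for other numbers. The replicate block called 0 members.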

Other observations

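The library of the AP2e line whose title names a Het replicate 4 and whose genotype label names floxed Smad4 held 49404384 counts. Scaled together with the other 18, it measured 735 CPM of Cyp2a5, 1289 CPM of Cyp2f2, 74.9 CPM of Cyp2g1, 8.42 CPM of Cyp1a2 and 237 CPM of Ugt2a1. Cyp2a4 had 18 counts there.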
